A study of Homo sapiens with 6 samples.

Results

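The genes described here are the protein-coding ZSCAN and ZKSCAN genes, which encode zinc finger proteins with a SCAN domain. They were picked by a rule on symbol and gene type that uses no measured value, though earlier results of these data were known. They number 28 of the 60664 genes in the deposited table. RNA was sequenced in 6 libraries of HCT8 cells, a human line from a colorectal tumour, per the labels, grown in DMEM with serum. A KDM4A overexpression plasmid had been transfected into the cells of 3 libraries, whose genotype is given as KDM4A-overexpressing, and a control plasmid into those of the other 3, given as WT. The labels give every library the same batch number and do not say how long after transfection RNA was taken, what else the plasmids carry, or whether a group's libraries were grown separately. The p-values therefore measure only the spread between these libraries, which may be technical.

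The SCAN domain is a leucine-rich stretch through which these proteins pair with themselves and with each other, and the C2H2 zinc fingers behind it bind DNA. The ZKSCAN members also carry a KRAB box. In many zinc finger proteins this box recruits the co-repressor TRIM28 and with it enzymes that place methyl groups on lysine 9 of histone H3. Not every KRAB box does so, and whether those of the members do was not measured here. KDM4A removes methyl groups from that lysine and from lysine 36 of the same histone, and it is not itself a member. In the human genome many SCAN genes lie side by side, the best known group being on the short arm of chromosome 6 at the edge of the major histocompatibility region.

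Library totals were 14284240 to 23905980 counts in the KDM4A plasmid group and 18380500 to 22990881 in the control group. KDM4A stood at 156 ± 3.90 CPM (counts scaled by library size and composition) with its plasmid and at 44.7 ± 1.56 CPM in controls (SD, n = 3 each). Across genes, log2 CPM of libraries of the same group correlated at r = 0.993 to 0.995 and of libraries of different groups at 0.895 to 0.906. All 9 tested colorectal epithelial markers of a list of 12 were higher with the KDM4A plasmid. Over all genes tested 40% were called higher and 38.6% lower. The list summed to 3454 to 3708 CPM with the KDM4A plasmid, against 255 to 272 CPM in controls. Most of it was KRT8, with means of 1671 and 120 CPM in the 2 groups, and KRT18, with 1015 and 61.7 CPM. KRT20 had 11 and 7 counts over the KDM4A plasmid and control libraries, TFF3 had 1 and 1, and CEACAM5 had 2 and 11. Of the fibroblast markers 3 of 5 were tested, 0 rose and 2 fell, and the list summed to 12.8 to 15.1 CPM with the KDM4A plasmid, against 19.6 to 21.1 CPM in controls. Of the leukocyte markers 1 of 4 was tested and did not pass, and the list summed to 1.80 to 2.12 CPM with the KDM4A plasmid and 1.18 to 2.87 CPM in controls. These marker levels move with the groups in every comparison given here, and their part in the members' values was not tested. That both groups hold the same cell line rests on the labels alone, and every fold change below carries this limit. In such bulk libraries fewer cells of a type and less RNA per cell cannot be told apart.

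The promoters of the members that carry the comparison are shown first. The table of RefSeq promoters (GRCh38.p14) held 24 of the 28 members. Each sequence below is the 250 bases before the RefSeq start nearest the deposited gene start. It is read 5′ to 3′ on the gene's own strand, with CpG dinucleotides, the sites of DNA methylation, in capitals. The windows of ZSCAN5A and ZSCAN23 reach into the deposited genes, which start at 56368383 and 28443502 on the minus strand. The first 3 sequences belong to the members with the largest falls. ZSCAN31 is a neighbour in the same cluster that was higher, and ZSCAN5A is the member with the largest rise.
ZSCAN23, chr6:28443492-28443741, minus strand: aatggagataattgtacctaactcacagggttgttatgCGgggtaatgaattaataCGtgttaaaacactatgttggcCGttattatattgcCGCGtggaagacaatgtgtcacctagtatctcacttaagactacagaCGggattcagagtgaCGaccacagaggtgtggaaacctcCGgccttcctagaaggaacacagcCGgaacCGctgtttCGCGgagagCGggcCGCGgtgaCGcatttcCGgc
ZSCAN12, chr6:28399748-28399997, minus strand: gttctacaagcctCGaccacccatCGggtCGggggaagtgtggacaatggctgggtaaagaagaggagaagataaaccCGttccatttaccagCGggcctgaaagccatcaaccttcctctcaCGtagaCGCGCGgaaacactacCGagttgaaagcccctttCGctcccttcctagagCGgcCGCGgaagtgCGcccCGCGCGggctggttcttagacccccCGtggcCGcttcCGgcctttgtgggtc
ZKSCAN8, chr6:28141633-28141882, plus strand: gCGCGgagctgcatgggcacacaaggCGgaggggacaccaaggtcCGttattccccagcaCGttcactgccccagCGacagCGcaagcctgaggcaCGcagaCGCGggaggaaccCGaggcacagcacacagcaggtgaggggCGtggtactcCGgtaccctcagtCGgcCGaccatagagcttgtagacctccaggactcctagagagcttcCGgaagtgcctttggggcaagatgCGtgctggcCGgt
ZSCAN31, chr6:28356272-28356521, minus strand: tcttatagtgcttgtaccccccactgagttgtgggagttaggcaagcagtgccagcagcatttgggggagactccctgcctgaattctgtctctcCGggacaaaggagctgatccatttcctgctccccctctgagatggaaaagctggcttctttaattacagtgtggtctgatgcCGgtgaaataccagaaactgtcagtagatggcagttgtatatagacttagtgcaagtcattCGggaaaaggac
ZSCAN5A, chr19:56368279-56368528, minus strand: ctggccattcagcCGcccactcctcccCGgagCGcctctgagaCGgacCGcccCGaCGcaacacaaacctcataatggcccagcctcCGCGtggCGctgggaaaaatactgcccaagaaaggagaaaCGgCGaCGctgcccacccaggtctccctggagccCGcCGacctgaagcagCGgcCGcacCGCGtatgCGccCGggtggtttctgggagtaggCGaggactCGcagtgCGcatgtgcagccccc

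The ZSCAN23, ZSCAN12 and ZKSCAN8 windows hold 17, 21 and 18 CpG dinucleotides, that of ZSCAN31 holds 3 and that of ZSCAN5A holds 24. Over the 24 members with a promoter the median was 18, with a range of 2 to 33, and over 27305 RefSeq genes with 1 promoter each the median was 10. GC content had a median of 62.0% in the members and 57.6% over all genes. The letters GGGCGG, on either strand, were found in 14 of the 24 members (58.3%) and in 42.2% of all genes, and the CCAAT box letters CCAAT in 7 (29.2%) and in 33.0%. These comparisons set unlike sets side by side. For members the promoter nearest the deposited gene start was taken, and for all genes the one farthest upstream. The RefSeq genes were also not limited to protein-coding ones. In the chromosome 6 cluster, 1 of the 7 members with a promoter (ZKSCAN3) held GGGCGG. By direction, the promoters of the 14 members that fell and were matched held 7 to 32 CpG dinucleotides, and the 2 that rose and were matched held 3 and 24. These matches describe letters in a window and no more.

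Most measured members were lower with the KDM4A plasmid. Of the 28 members, 22 had enough counts to be tested. Of these, 16 fell, 3 rose (ZSCAN5A, ZSCAN31 and ZSCAN16) and 3 did not pass (ZSCAN18, ZSCAN22 and ZSCAN25), by edgeR's quasi-likelihood test with Benjamini-Hochberg adjustment over all 17147 genes tested and a threshold of 0.05. Most genes of any kind passed this test, so the members' counts have to be read against a background of 78.6% of all genes tested called in either direction, 38.6% called lower and 40% called higher. The members stood at 72.7% lower and 13.6% higher. Their median log2 fold change, KDM4A plasmid over control, was -0.46, beside 0.026 over all genes tested, -0.34 over 429 tested ZNF genes and 0.056 over 27 tested other genes with a SCAN domain. Among the ZNF genes 54.5% were called lower and 25.2% higher. The 3 libraries of the KDM4A plasmid group lay wholly below those of the control group in 16 members and wholly above in 4, against 39.3% and 40.4% of all genes tested (79.7% in either direction). ZSCAN23 passed the filter on low counts only through its control libraries, and without it 15 of 21 members were lower and 3 higher, with a median of -0.38.

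**Figure D1:**
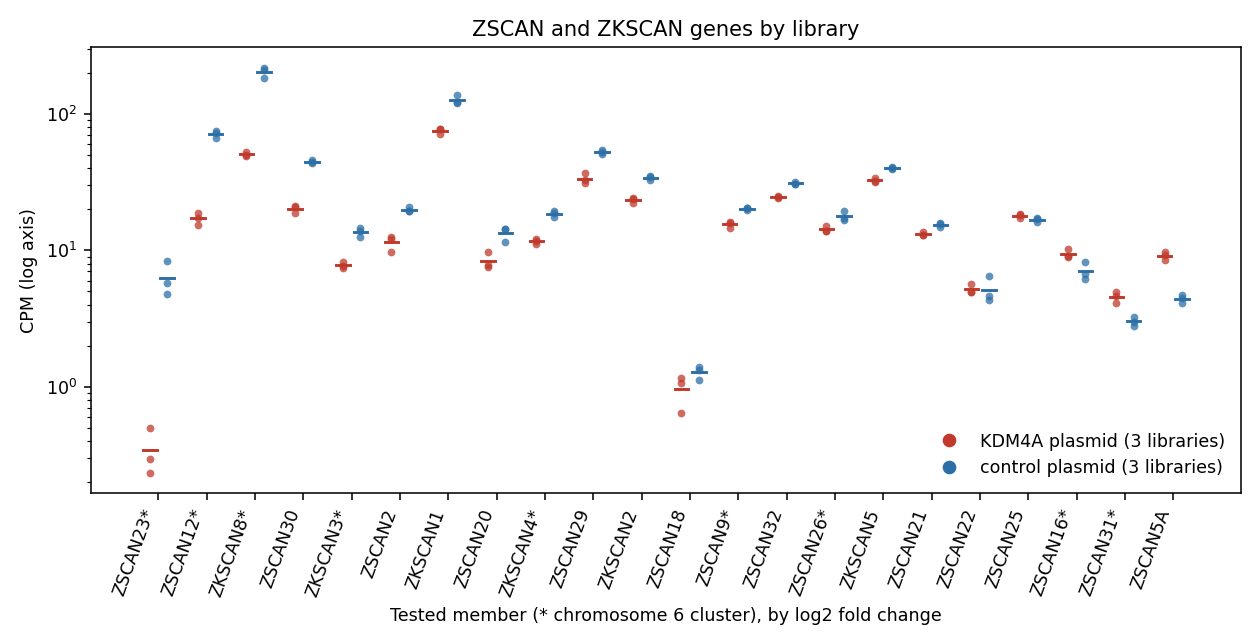
Level of each of the 22 tested members in every library, in CPM on a log axis, with KDM4A plasmid libraries to the left of control libraries and a bar at each group's mean. ZSCAN23 lies at 0.233 to 0.494 CPM in the KDM4A plasmid libraries, against 4.78 to 8.35 CPM in controls, and ZSCAN5A at 8.47 to 9.79 CPM, against 4.12 to 4.69 CPM in controls.

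**Figure D2:**
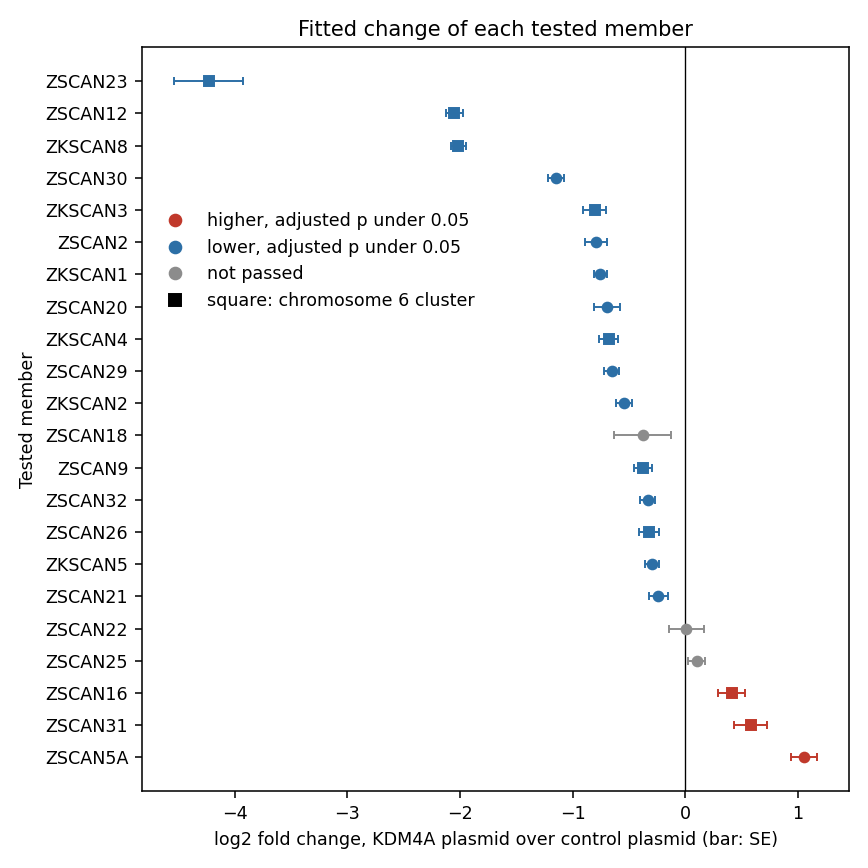
Fitted log2 fold change of each tested member, KDM4A plasmid over control plasmid, with its standard error and squares for the chromosome 6 cluster. The changes run from -4.23 for ZSCAN23 to 1.06 for ZSCAN5A, with 16 members lower, 3 higher and 3 not passed.

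**Figure D3:**
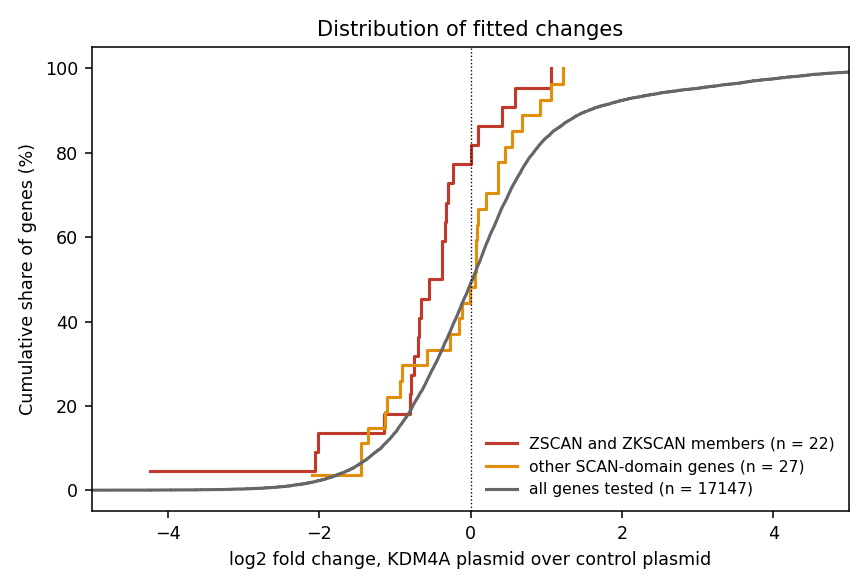
Cumulative share of genes at or below each log2 fold change, for the tested members, the other SCAN-domain genes and all genes tested (the axis ends at 5 in each direction). The members' curve crosses its middle at -0.46 and that of all genes at 0.026.

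The members' total output was also lower. All 28 together summed to 416, 399 and 411 CPM in the KDM4A plasmid libraries, against 776, 798 and 736 CPM in the control libraries. The groups did not overlap, with means of 409 ± 8.68 and 770 ± 31.6 CPM (SD, n = 3 each). A single gene, ZKSCAN8, held 12.0%, 12.3% and 12.9% of the members' counts with the KDM4A plasmid and 27.1%, 27.5% and 25.0% in controls. The share of ZKSCAN1 was larger, with 18.6%, 17.99% and 19.0% of the members' counts in the KDM4A plasmid libraries, against 15.9%, 17.2% and 16.5% in controls, although its own level was lower. The 9 members of the chromosome 6 cluster together made up 32.2% ± 0.145 with the KDM4A plasmid and 47.1% ± 1.05 in controls (SD, n = 3 each).

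**Figure D4:**
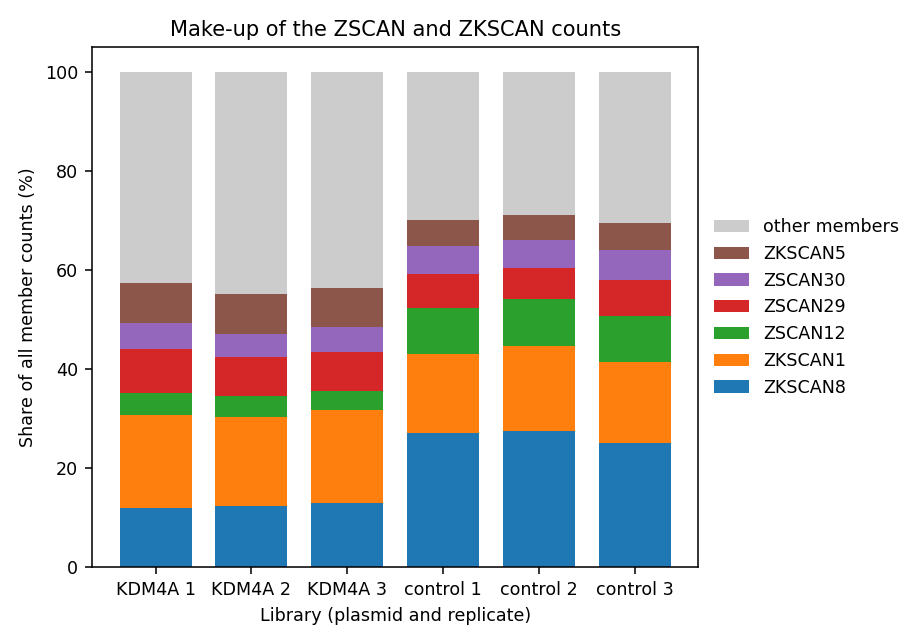
Share of all member counts held by 6 members with high counts and by the rest, for each library. ZKSCAN8, the lowest segment, holds 12.0% to 12.9% in the KDM4A plasmid libraries and 25.0% to 27.5% in the control libraries.

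The chromosome 6 cluster near 28 Mb runs from ZSCAN16 to ZSCAN23 (chromosome 6, 28124609 to 28443502, GRCh38.p13 as the table gives positions). It held 9 members, and all were tested. Of these, 7 fell (77.8%) and 2 rose (22.2%), with a median log2 fold change of -0.68, and in all 9 the groups did not overlap. Over all genes tested 38.6% were called lower and 40% higher, and in 79.7% the groups did not overlap. Without ZSCAN23, 6 of 8 fell and 2 rose, with a median of -0.53. The falls were unequal, and close neighbours moved by very different amounts.

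ZSCAN23 (ENSG00000187987, chromosome 6, 28431930 to 28443502, minus strand) had the largest fall of the members. It had 4, 7 and 7 counts in the KDM4A plasmid libraries, against 109, 169 and 109 in the control libraries. Those counts are 0.233, 0.297 and 0.494 CPM with the KDM4A plasmid, against 5.76, 8.35 and 4.78 CPM in controls. The gene was near the limit of detection in each KDM4A plasmid library and low but plain in each control library, and the highest KDM4A plasmid library lay far below the lowest control. The fitted change was -4.23 (SE 0.31), an 18.8-fold lower level, and it ran from -4.50 to -3.98 when single libraries were left out. Since only its control libraries reached the filter on low counts, the gene could enter the test only by being high there, so its p is not given and its place in the counts of members lower is no support for them. The size of its fall rests on 18 counts over the KDM4A plasmid libraries. Its exons overlap those of no other gene in GENCODE release 29.

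ZSCAN12 (ENSG00000158691, chromosome 6, 28378955 to 28399747, minus strand) is the next member along the chromosome and had the second largest fall. It stood at 19.0, 17.3 and 15.2 CPM with the KDM4A plasmid, against 72.3, 74.9 and 67.2 CPM in controls, with no overlap. Its log2 fold change was -2.05 (SE 0.075, edgeR adjusted p = 7.3e-14). ZSCAN12P1, its pseudogene, whose start lies 309 kb away, went the other way, at 2.50 ± 0.357 CPM with the KDM4A plasmid and 1.42 ± 0.301 CPM in controls (SD, n = 3 each; log2 fold change 0.82, SE 0.21, edgeR adjusted p = 0.0015). Reads that align to both copies can be split or lost in counting.

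ZKSCAN8 (ENSG00000198315, chromosome 6, 28141883 to 28159460, plus strand) was the member with the highest level per exon length in controls. It stood at 50.05, 49.2 and 53.1 CPM in the KDM4A plasmid libraries, against 210.4, 219.6 and 184 CPM in the control libraries. Each control library held more than 3 times the level of any KDM4A plasmid library. The log2 fold change was -2.01 (SE 0.067, edgeR adjusted p = 2.2e-14). The pseudogene ZNF192P1, which carries this gene's older name and starts just behind it on the same strand, was also lower, at 1.43 ± 0.223 CPM with the KDM4A plasmid and 3.74 ± 0.276 CPM in controls (SD, n = 3 each; log2 fold change -1.40).

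ZKSCAN3, known as a repressor of autophagy and lysosome genes and studied in colorectal cancer, fell less. It stood at 8.26, 7.67 and 7.48 CPM with the KDM4A plasmid and at 14.5, 13.9 and 12.5 CPM in controls. All KDM4A plasmid libraries were below all controls, and the log2 fold change was -0.80 (SE 0.099, edgeR adjusted p = 8.9e-07). ZSCAN31 runs on the other strand across the start of ZKSCAN3, but the exons of the 2 genes do not overlap in GENCODE release 29. It rose to 4.66, 4.11 and 4.94 CPM with the KDM4A plasmid, against 2.80, 3.26 and 2.98 CPM in controls (log2 fold change 0.58, SE 0.14, edgeR adjusted p = 0.0013). These 2 genes, whose starts lie 6.32 kb apart, differed in direction.

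The KRAB-bearing ZKSCAN4 stood at 12.2, 11.1 and 11.7 CPM with the KDM4A plasmid and at 17.7, 19.4 and 18.8 CPM in controls (log2 fold change -0.68, SE 0.086, edgeR adjusted p = 1.2e-06). ZSCAN9 had 15.9, 16.1 and 14.7 CPM with the KDM4A plasmid and 20.6, 20.4 and 19.9 CPM in controls (log2 fold change -0.37, SE 0.078). ZSCAN26 had 15.1, 13.9 and 13.9 CPM with the KDM4A plasmid and 17.4, 16.8 and 19.4 CPM in controls (log2 fold change -0.32, SE 0.087). In each of these 3 genes the KDM4A plasmid libraries lay below the controls, with edgeR adjusted p from 1.2e-06 to 0.0026. ZSCAN26 shares 9.96% of its exon bases with a same-strand readthrough gene, and such reads can go uncounted.

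ZSCAN16 stood at 9.02, 8.94 and 10.3 CPM with the KDM4A plasmid and at 6.71, 6.13 and 8.16 CPM in controls. The groups lay apart by less than 1 CPM. Its log2 fold change was 0.41 (SE 0.12, edgeR adjusted p = 0.0046), but the value was -0.073 once trends with exon length were removed. It shares 14.8% of its exon bases with its antisense transcript gene ZSCAN16-AS1, which also rose (10.6 ± 1.13 CPM with the KDM4A plasmid, 8.33 ± 0.0611 CPM in controls; SD, n = 3 each), and without a stated strand setting their shared reads cannot be told apart. It also missed the threshold with GC and length trends removed (log2 fold change 0.087, edgeR adjusted p = 0.47). The rise of ZSCAN31 missed it with length trends removed (log2 fold change 0.32, edgeR adjusted p = 0.053) and passed with GC and length trends removed (0.60, edgeR adjusted p = 6.8e-04).

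**Figure D5:**
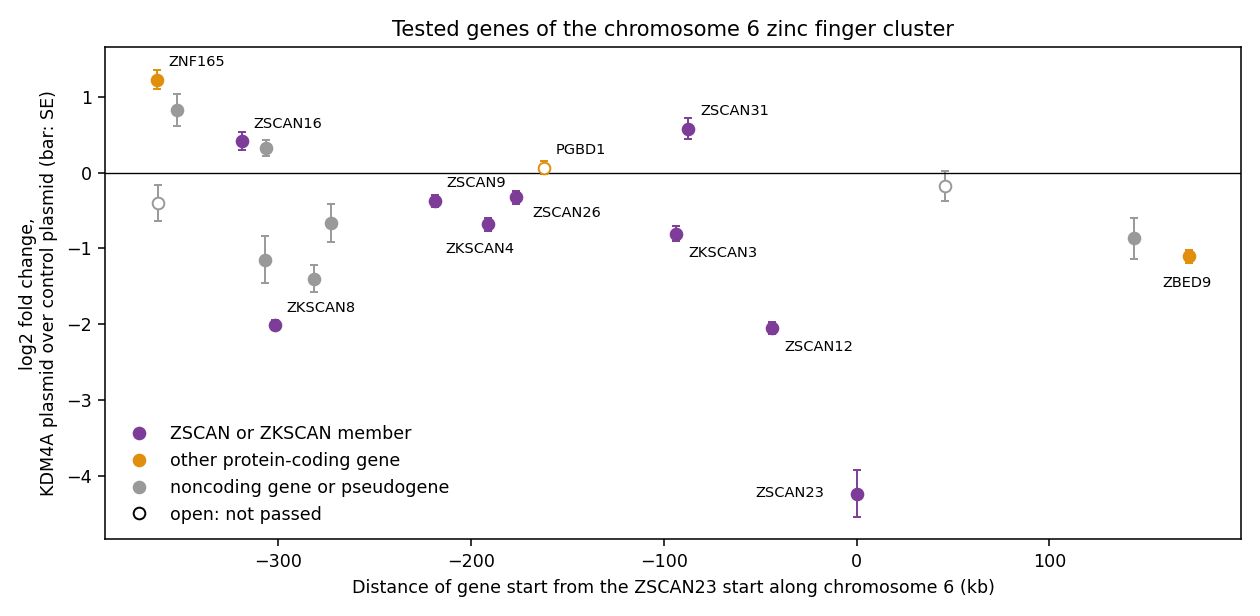
Log2 fold change, KDM4A plasmid over control plasmid, with its standard error, of the 20 tested genes of the chromosome 6 window, by distance of the gene's start from that of ZSCAN23 in kb. Members are purple, and falls from -4.23 to -0.32 alternate with 2 rises.

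The genes of the window around the cluster, which reaches from ZSCAN16-AS1 to ZBED9, did not move as a block. Of the window's 20 tested genes of all types, members included, 12 fell, 5 rose and 3 did not pass. The shares over all genes tested were 38.6% called lower and 40% called higher. Of the 11 genes of the window that are no members, 5 fell, 3 rose and 3 did not pass. These are too few for their counts to be a result about them. The 3 tested protein-coding genes there that are no members also have a SCAN domain. PGBD1 lies between members, and ZNF165 and ZBED9 lie outside the stretch from ZSCAN16 to ZSCAN23. ZNF165 was higher, at 14.8 ± 1.67 CPM with the KDM4A plasmid and 6.27 ± 1.29 CPM in controls (log2 fold change 1.23, SE 0.13, edgeR adjusted p = 1.3e-07). PGBD1, whose SCAN domain is joined to a transposase-derived part, stood at 21.6 ± 1.80 and 20.7 ± 1.68 CPM in the KDM4A plasmid and control groups and did not pass (log2 fold change 0.066, SE 0.085). ZBED9 was lower, at 9.25 ± 0.271 CPM with the KDM4A plasmid and 19.8 ± 0.668 CPM in controls (log2 fold change -1.10, SE 0.086). All these are means ± SD with n = 3 in each group. ZSCAN16 and ZKSCAN8, whose starts lie 17.3 kb apart, had log2 fold changes of 0.41 and -2.01.

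Outside the cluster lie 19 members, of which 13 were tested. Of these, 9 fell (69.2%), 1 rose (7.69%) and 3 did not pass, with a median log2 fold change of -0.38. Over all genes tested 38.6% were called lower and 40% higher. By chromosome the calls were not spread evenly, as a description over few genes. On chromosomes 1, 15, 16 and 18, 6 members were tested and all fell, on chromosome 7 there were 3 falls among 4, and on chromosome 19 none of 3 tested members fell.

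ZSCAN30 on chromosome 18 had the largest fall outside the cluster. It stood at 21.2, 18.7 and 20.9 CPM with the KDM4A plasmid and at 43.5, 45.9 and 44.5 CPM in controls. The groups lay far apart, and the log2 fold change was -1.15 (SE 0.069, edgeR adjusted p = 6.0e-11). Its exons share 3.81% of their bases with other genes, mainly its opposite-strand neighbour ZNF397.

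ZKSCAN1 on chromosome 7, known for an abundant circular RNA made from its exons, was the second most abundant member in controls per exon length. It stood at 77.5, 71.8 and 78.0 CPM with the KDM4A plasmid and at 123, 137 and 121 CPM in controls, with no overlap (log2 fold change -0.75, SE 0.061, edgeR adjusted p = 3.4e-09). The counts are per gene and do not separate circular from linear RNA. The other members of the same stretch of chromosome 7 moved less. ZKSCAN5 stood at 32.9 ± 1.19 CPM with the KDM4A plasmid and 40.4 ± 0.541 CPM in controls (log2 fold change -0.30). ZSCAN21, reported to bind the alpha-synuclein gene, stood at 13.2 ± 0.404 CPM with the KDM4A plasmid and 15.5 ± 0.480 CPM in controls (log2 fold change -0.24, edgeR adjusted p = 0.015). ZSCAN21 shares 41.1% of its exon bases with the opposite-strand gene ZNF3, and its call was lost without KDM4A plasmid replicate 2 (edgeR adjusted p = 0.065). ZSCAN25 did not pass, at 17.98 ± 0.631 CPM with the KDM4A plasmid and 16.8 ± 0.595 CPM in controls (log2 fold change 0.10, SE 0.079), although its KDM4A plasmid libraries lay above its controls. These 3 pairs are means ± SD with n = 3 in each group.

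On chromosome 15 both members fell. ZSCAN2 stood at 9.78, 12.1 and 12.6 CPM with the KDM4A plasmid and at 20.7, 19.4 and 19.6 CPM in controls (log2 fold change -0.79, SE 0.095, edgeR adjusted p = 6.3e-07). ZSCAN29 stood at 37.2, 31.1 and 32.6 CPM with the KDM4A plasmid and at 53.1, 50.6 and 54.6 CPM in controls (log2 fold change -0.65, SE 0.069, edgeR adjusted p = 1.2e-07). Neither gene's groups overlapped. ZSCAN2 shares 27.7% of its exon bases with opposite-strand genes and ZSCAN29 shares 1.54%.

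On chromosome 16, ZKSCAN2 stood at 23.7, 24.2 and 22.1 CPM with the KDM4A plasmid and at 35.4, 34.4 and 32.8 CPM in controls (log2 fold change -0.54, SE 0.069, edgeR adjusted p = 1.1e-06). ZSCAN32 stood at 24.2, 25.0 and 24.8 CPM with the KDM4A plasmid and at 31.7, 30.8 and 30.8 CPM in controls (log2 fold change -0.33, SE 0.065, edgeR adjusted p = 1.7e-04). Both groups of libraries were tight and apart in each gene. ZKSCAN2 shares 6.40% of its exon bases with an opposite-strand gene. For ZSCAN32 the overlap is extensive, since 83.5% of its exon bases also lie in exons of opposite-strand noncoding genes. ZSCAN20 on chromosome 1 stood at 7.51, 7.75 and 9.67 CPM with the KDM4A plasmid and at 14.3, 14.3 and 11.5 CPM in controls (log2 fold change -0.69, SE 0.12, edgeR adjusted p = 3.7e-05). Its control replicate 3 lay nearest the KDM4A plasmid libraries, and the call was lost with length trends removed (log2 fold change -0.17, edgeR adjusted p = 0.18) but passed with GC and length trends removed (-0.39, edgeR adjusted p = 0.0014).

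ZSCAN5A on chromosome 19 had the largest rise of the members. It stood at 9.25, 9.79 and 8.47 CPM with the KDM4A plasmid, against 4.12, 4.69 and 4.48 CPM in controls. The groups did not overlap (log2 fold change 1.06, SE 0.11, edgeR adjusted p = 1.7e-07). ZSCAN5A shares 12.2% of its exon bases with other genes, mainly on the opposite strand. ZSCAN5B and ZSCAN5C, its close copies beside it, had 1 and 1 counts over the KDM4A plasmid libraries and 1 and 0 over the controls, and reads common to the copies can be lost. ZSCAN18 stood at 0.953 ± 0.280 CPM with the KDM4A plasmid and 1.27 ± 0.143 CPM in controls (log2 fold change -0.38, SE 0.25, edgeR adjusted p = 0.18), and ZSCAN22 at 5.18 ± 0.401 CPM with the KDM4A plasmid and 5.15 ± 1.18 CPM in controls (log2 fold change 0.012, SE 0.15, edgeR adjusted p = 0.95; SD, n = 3 each). Libraries overlapped between the groups in both genes. ZSCAN18 shares 25.2% of its exon bases with the opposite-strand gene ZNF135.

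The 6 members not tested had almost no reads. ZSCAN4, which marks cleavage-stage embryos and is tied to telomere lengthening in mouse embryonic stem cells, had 5, 4 and 2 counts in the KDM4A plasmid libraries and 0 in every control library. Against a floor of 3 counts over the control group, its 11 counts with the KDM4A plasmid stood 4.13-fold higher. That figure takes the 11 counts as exact and leaves out their own counting error, so it is no lower bound. With no filter the gene was called higher, but it entered that fit only through its KDM4A plasmid counts. Its p is therefore not given, and the call is no support for a rise. ZSCAN10, a pluripotency factor in mouse embryonic stem cells, had 2 and 2 counts over the KDM4A plasmid and control groups, ZKSCAN7 had 0 and 2, and ZSCAN1 had 0 and 0. A count of 0 allows up to 3 counts over a group, so for these genes no difference was detectable at this depth.

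Per kilobase of exon the order of the members differed between the groups. With the KDM4A plasmid the highest levels were those of ZSCAN9 (9.40 ± 0.478 RPKM), ZKSCAN1 (8.06 ± 0.364), ZSCAN32 (7.94 ± 0.134), ZSCAN16 (7.37 ± 0.599) and ZKSCAN8 (6.84 ± 0.275). In controls they were those of ZKSCAN8 (27.6 ± 2.47 RPKM), ZKSCAN1 (13.5 ± 0.921), ZSCAN9 (12.2 ± 0.210), ZSCAN30 (10.8 ± 0.294) and ZSCAN32 (10.01 ± 0.166), all as SD with n = 3. Neighbours in the KDM4A plasmid order lay within about their SDs of each other from ZKSCAN1 to ZSCAN16, while ZKSCAN8 stood far above the others in controls. ZSCAN16 ranked 4 of 28 with the KDM4A plasmid and 11 of 28 in controls.

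Members without an exon overlap in GENCODE release 29 were mostly lower too. Of the 28 members, 17 share no exon base with another gene in GENCODE release 29, and 12 of those were tested. Of the 12, 9 fell (75%), 1 rose (8.33%) and 2 did not pass, with a median log2 fold change of -0.69. Over all genes tested 38.6% were called lower and 40% higher. The 9 include ZSCAN23, whose place in the count is no support for it. Deposited exon lengths need not match release 29. ZKSCAN4 has 5346 deposited exon bases and 2375 in release 29, ZSCAN12 has 7711 and 5495, and ZSCAN20 has 9456 and 5308. ZSCAN31 has fewer deposited bases, 2812 and 4957. Exon bases outside release 29 were not checked, so such members may still share some.

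The size of many changes depended on whether trends with exon length, or with GC content and exon length, were removed from each library. Several falls were smaller then. ZKSCAN1 stood at -0.23 with length trends removed and -0.19 with GC and length trends removed, ZKSCAN2 at -0.16 and -0.24, ZSCAN29 at -0.40 and -0.36, and ZKSCAN5 at -0.17 and -0.16, all log2 fold changes that still passed. ZKSCAN8 stood at -1.63 and -1.40 and ZSCAN12 at -1.64 and -1.45. The rise of ZSCAN5A was 0.69 and 0.79. Other falls were larger under the same settings, with ZSCAN21 at -0.62 and -0.62, ZSCAN9 at -0.81 and -0.66, ZSCAN26 at -0.61 and -0.38 and ZSCAN32 at -0.54 and -0.53. Over the tested members, 16 fell and 1 rose with length trends removed, and 17 fell and 2 rose with GC and length trends removed. The background moved too. Of all 17147 genes tested, 7541 fell and 5610 rose with length trends removed, and 7596 fell and 5828 rose with GC and length trends removed. In the main fit 6613 fell and 6867 rose.

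The other SCAN-domain genes, which carry ZNF or other names, moved in both directions. Of 28 genes listed, 27 were tested, 10 fell (37%), 9 rose (33.3%) and 8 did not pass, shares near those of all genes tested (38.6% lower, 40% higher). With length trends removed 12 fell and 7 rose, and with GC and length trends removed 14 fell and 5 rose. Under both settings the counts over all genes also moved towards falls, as given above. Their difference from the members was not tested. The largest falls were those of ZNF449 (9.67 ± 1.06 CPM with the KDM4A plasmid, 41.4 ± 1.81 CPM in controls; log2 fold change -2.10), ZNF483 (-1.45) and ZNF396 (-1.44). The largest rises were those of ZNF165, given above, SCAND1 (21.2 ± 1.59 CPM with the KDM4A plasmid, 10.1 ± 0.646 CPM in controls; log2 fold change 1.06), which is a SCAN domain without zinc fingers, and ZNF232 (0.91). ZNF274, named after its values were seen, is known to bring the methyltransferase SETDB1 to zinc finger genes. It stood at 21.0 ± 1.16 CPM with the KDM4A plasmid and 22.6 ± 0.937 CPM in controls and did not pass (log2 fold change -0.11, SE 0.076, edgeR adjusted p = 0.18; SD, n = 3 each, for all values here).

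Of the partners through which KRAB boxes that recruit TRIM28 act, 17 genes were listed and tested. Of these 17 KRAB co-repressor genes, 7 fell (41.2%), 5 rose (29.4%) and 5 did not pass, with a median log2 fold change of -0.022. The share called, 70.6%, was below the 78.6% of all genes tested, 41.2% lower stands near the background of 38.6%, and 29.4% higher lies below that of 40%, so these counts are no result about the list. TRIM28 itself rose to 374 ± 34.1 CPM with the KDM4A plasmid, against 199 ± 13.4 CPM in controls (log2 fold change 0.91, SE 0.068, edgeR adjusted p = 1.0e-09). The other large rises were those of CHD4, a nucleosome remodeller (1.41), and MPHOSPH8, a reader of methylated lysine 9 (0.67). The largest falls were those of the remodellers ATRX (76.9 ± 1.42 CPM with the KDM4A plasmid, 222 ± 18.2 CPM in controls; log2 fold change -1.53) and SMARCAD1 (-1.13) and of CBX5 (-0.75), which encodes the heterochromatin protein HP1-alpha. SETDB1, named after its values were seen, fell to 49.0 ± 2.64 CPM with the KDM4A plasmid, against 81.8 ± 5.21 CPM in controls (log2 fold change -0.74, SE 0.063; SD, n = 3 each).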

How the data were processed

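RNA was measured in 3 KDM4A plasmid and 3 control plasmid libraries. The authors deposited raw read counts per gene, with positions on GRCh38.p13 per the file headers, and HISAT2, HTSeq and GRCh38 are named in the submitters' processing notes (versions and strand setting not given in the sources used here). Exon length is a deposited column, and 0 columns were unmatched. The filterByExpr function of edgeR (minimum count 10) chose the genes to test, TMM factors were set, and the groups were compared with edgeR 4.0.16 (robust quasi-likelihood test, R 4.3.3), with adjustment over 17147 genes. CPM uses totals times TMM factors, and RPKM divides it by the deposited exon length. SE is the fold change divided by the root of F. Within groups, chi-square tests of 2 libraries at a time gave 1.48 to 10.7 per degree of freedom, above counting noise, so each library was 1 replicate. The floor used for ZSCAN4 covers counting error of the control group only. Exon overlaps come from GENCODE release 29, whose exon lengths differ from the deposited ones for some members, and promoters from RefSeq. The procedure was tested on simulated counts in which only a small part of the genes changed. In these data 78.6% of genes tested were called, so that test cannot show the error rate here. Alternatives were a replicate block, DESeq2 1.42.0, RLE factors, library totals, other filters, removed trends and leaving out libraries. The members and lists were chosen with earlier results of these data known. Every member is accounted for, with values in every library for the chromosome 6 cluster and the 8 other members with the largest changes among those that passed, and up to 3 rises and 3 falls are named per other list.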

Additional observations from a re-analysis of the deposited data

How the results depend on the processing

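Of 322 values of single genes under 14 alternatives, 310 kept their direction and their side of the threshold. Leaving out 1 library at a time gave 15 to 16 members lower and 3 to 3 higher (median log2 fold change -0.52 to -0.42), and in the chromosome 6 cluster 7 to 7 lower and 2 to 2 higher (-0.73 to -0.63). With a replicate block 16 members fell and 3 rose (median -0.48), and it changed no call of a member. Deviations of same-numbered libraries correlated at r = -0.15, 0.034 and -0.091, so the numbers were not taken as pairs. With no filter the members' median was -0.38, since members with almost no counts enter. Removing trends with exon length moved the median of all genes to -0.11, against 0.026, and left 1 member higher, 0 in the chromosome 6 cluster. ZSCAN16 then stood at -0.073, and ZSCAN20 and ZSCAN31 missed the threshold, which they passed with GC and length trends removed. Removing GC and length trends (chosen after seeing the data, median of all genes -0.11) left 1 cluster member higher, 5 other SCAN-domain genes higher (14 lower) and 8 KRAB co-repressor genes higher. ZSCAN22, which never passed, was at -0.035 with library totals only, -0.16 without GC and length trends, and from -0.12 to 0.19 with single libraries left out. ZSCAN18 was called lower with length trends removed (-0.68) and also once GC content was included (-1.04). The causes of these shifts were not tested. ZSCAN23 and ZSCAN4 are limited by depth, with 18 and 11 counts over the KDM4A plasmid libraries.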

Other observations

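Around ZSCAN30 on chromosome 18 lies a second, smaller run of SCAN-domain genes, described here after its values were seen. All 4 of its protein-coding SCAN-domain genes were lower with the KDM4A plasmid, against 38.6% of all genes tested. The fall was not limited to SCAN-domain genes. In the same run the pseudogene ZNF271P (log2 fold change -0.50) and a noncoding gene within the span of ZSCAN30 (-1.24) were also lower. ZNF397 stood at 34.1 ± 1.54 CPM with the KDM4A plasmid and 74.7 ± 2.72 CPM in controls, ZNF24 at 131 ± 0.868 CPM with the KDM4A plasmid and 251 ± 7.62 CPM in controls, and ZNF396 at 2.25 ± 0.194 CPM with the KDM4A plasmid and 6.07 ± 0.504 CPM in controls (SD, n = 3 each). Their log2 fold changes were -1.13, -0.93 and -1.44 (edgeR adjusted p from 7.4e-12 to 6.1e-08), beside -1.15 for ZSCAN30. Their borders were not flat, since MAPRE2 on one side stood at -0.55 and INO80C on the other at 1.32.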
